A study of Mus musculus with 4 samples.

Results

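Glucose uptake and glycolysis genes, with the genes of the cell's response to low oxygen, were followed in mouse embryonic stem cells (ESCs) labelled Naa10-KO and in ESCs labelled WT. The list held 39 gene symbols, and any table row that carried one of them was taken. This gave 38 rows out of 14099 named rows, because Pkm2, an older name of the Pkm gene, had no row of its own. The 38 rows fell into 5 role groups, namely 4 glucose and lactate transporters, 17 glycolytic enzymes, 4 regulators of flux, 3 genes of Hif1a and its hydroxylases, and 10 targets of Hif. The Naa10-KO group had 2 libraries and the WT group had 2. Both groups came from blastocysts of one cross, in which C57BL/6 females labelled Naa10-/X were mated with WT JF1 males, and the WT ESCs were littermates of the Naa10-KO ESCs. The cells of both groups are thus hybrids of distant inbred strains. All were kept in N2B27 medium with LIF, the Mek inhibitor PD325901 and the Gsk3 inhibitor Chir99021, for 5 passages on irradiated mouse embryonic fibroblast feeders and 5 passages without them. The sources used here do not give the deleted part of Naa10, the sex of the cells or the oxygen level of the cultures. They call the libraries biological replicates without saying whether these were separate lines or cultures of one line, so p-values measure only the spread between these libraries.

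Glycolysis splits glucose into pyruvate and yields ATP without oxygen. Glucose enters through transporters of the Slc2a family, and pyruvate that is turned into lactate leaves through transporters of the Slc16a family. Hif1a is the oxygen-regulated part of the transcription factor HIF. Prolyl hydroxylases encoded by the Egln genes mark its protein for destruction while oxygen is present, and at low oxygen the stabilised protein binds DNA with its partner Arnt and activates most glycolytic genes, among others. Mouse ESCs in medium of this kind use both glycolysis and mitochondrial respiration. Naa10, the catalytic subunit of the NatA N-terminal acetyltransferase, was once reported to act on the Hif1a protein in human cells, and later work disputed this.

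Levels are in RPKM, which divides a gene's reads by its length and by the library's mapped reads, so that levels can be compared between genes. Differences are given as log2(RPKM + 1) in Naa10-KO minus WT, which understates the change of genes near 1 RPKM, and were tested with limma across the 11912 rows that reached 1 RPKM in 2 or more of the 4 libraries. A Benjamini-Hochberg adjusted p under 0.05 over all these rows counts as a call. The row that holds Naa10 together with its neighbour Renbp had 28.9 and 34.4 RPKM in the Naa10-KO libraries and 105 and 106 RPKM in the WT libraries, and it fell (limma adjusted p = 0.0342, or 0.0821 without small RNA rows and rows at 0 in any library, and 0.366 or 0.355 with WT replicate 1 or 2 left out). Of 8 ESC markers, 3 had a higher and 5 a lower mean in Naa10-KO, and all were expressed in every library. In Naa10-KO replicate 1, 6 of them lay below both WT libraries, and in replicate 2, 6 lay above both. The Naa10-KO libraries stood apart from each other, with a median absolute log2 difference of 0.25 between them over all tested rows, against 0.05 between the WT libraries. Summed over 14 fibroblast markers, the level was 536 RPKM in Naa10-KO replicate 1 and 105.5 RPKM in Naa10-KO replicate 2, against 145 and 151 RPKM in the WT libraries, with no marker at 0. Of the 13 tested markers, 11 lay above both WT libraries in Naa10-KO replicate 1 and 11 lay below both in replicate 2. The sum is weighted toward the most abundant markers. The median log2 difference from the WT mean over the 13 was 0.82 in replicate 1 and -0.72 in replicate 2. The marker S100a4, a calcium-binding protein gene, was above WT in both, at 35.2 and 10.9 RPKM in Naa10-KO and 8.81 and 7.46 RPKM in WT (log2 difference 1.19, limma adjusted p = 0.316). As the RNA is from bulk cultures, fewer cells of a type and less RNA per cell cannot be told apart.

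Most genes of the list had higher values in Naa10-KO, and much more so in replicate 2 than in replicate 1. Of the 37 rows tested, 27 had a higher mean in Naa10-KO (73.0%, where 42.7% of all tested rows did), and the median log2 difference was 0.30, against -0.06 over all tested rows. Only 1 row was called, the glucose transporter gene Slc2a1, which rose. Calls were rare in general, at 0.764% of all tested rows, with 0.218% called higher and 0.546% called lower in Naa10-KO. An unadjusted limma p under 0.05 was found for 8 of the 37 rows, or 21.6%, close to the 22.1% of all tested rows. In 18 of the 37 rows each Naa10-KO value exceeded each WT value (24.4% of all tested rows), and in 6 each was below (34.9% of all tested rows). The groups thus stood apart in most rows of the list, and in 59.3% of all tested rows, while the remaining 13 rows overlapped.

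The Naa10-KO libraries differed in how far the list stood from WT. Replicate 1 lay above both WT libraries in 20 rows (background 38.3%) and below both in 15 (background 54.6%), with a median log2 difference of 0.05 from the WT mean. Replicate 2 lay above both in 27 rows (background 41.8%) and below both in 8 (background 48.3%), with a median of 0.52. Set against each other, Naa10-KO replicate 2 was higher than replicate 1 in 30 of the 37 rows, whereas this held for 54.5% of all tested rows. The median absolute log2 difference over the 37 rows was 0.43 between the Naa10-KO libraries and 0.03 between the WT libraries. The fibroblast markers were low in replicate 2 and high in replicate 1, and a list of 8 ESC markers had a median log2 difference from WT of 0.25 in replicate 2 and -0.38 in replicate 1. The part of either list in the split was not tested.

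**Figure D1:**
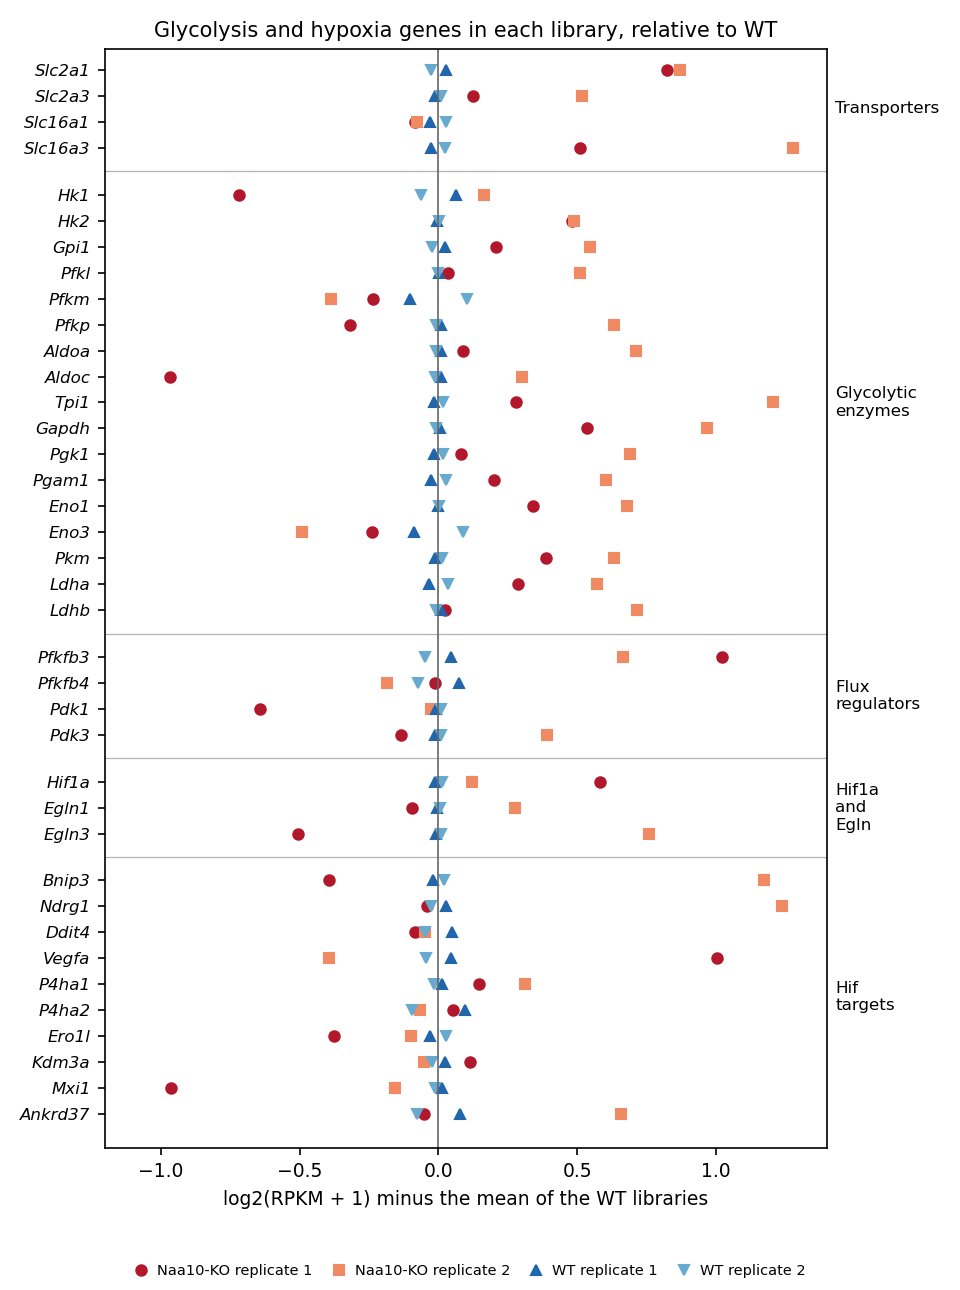
Each line is a gene of the list, grouped by role, and the x axis gives log2(RPKM + 1) in each of the 4 libraries minus the mean of the WT libraries. The WT libraries lie close together (median absolute log2 difference 0.03), while Naa10-KO replicate 2 lies right of both WT libraries in 27 of the 37 tested rows and replicate 1 in 20.

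HIF recognises a short core in DNA, ACGTG or GCGTG. These letters were searched on both strands, so that the reverse forms CACGT and CACGC count too and the palindrome CACGTG counts on each strand. RefSeq promoter windows of build GRCm38.p6, from 250 bases before to 50 after each annotated start, were found for 36 of the 38 genes and numbered 54, since some genes have several starts. A core was present in 43 of the 54 windows, or 79.6%, against 62.6% of the 11505 windows of genes with a tested row and 43.8% of all 32851 windows. The windows of the list had a median GC content of 63.1%, against 61.0% and 52.7% in those sets, and a CpG is part of every core. A match describes letters only and is not a measured binding site. By gene, 34 of the 36 held a core (94.4%, against 68.7% of genes with a tested row). The enzyme genes Tpi1 and Gpi1 held none. Shown are the 250 bases before the start for 6 genes with a single annotated start, picked with the results below in view. All 6 hold a core. They comprise Slc2a1 (chr4:119108495-119108744, plus strand), the lactate exporter gene Slc16a3 (chr11:120948817-120949066, plus strand), the enzyme genes Hk2 (chr6:82774455-82774704, minus strand), Gapdh (chr6:125165774-125166023, minus strand) and Pgk1 (chrX:106186850-106187099, plus strand), and the Hif target Bnip3 (chr7:138909507-138909756, minus strand). Each runs 5′ to 3′ on the gene's strand, with matches to the core in capitals.
Slc2a1: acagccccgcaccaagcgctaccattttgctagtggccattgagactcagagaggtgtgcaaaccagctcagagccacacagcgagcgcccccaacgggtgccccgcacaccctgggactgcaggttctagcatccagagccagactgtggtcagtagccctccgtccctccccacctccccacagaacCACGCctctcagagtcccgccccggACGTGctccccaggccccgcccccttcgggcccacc
Slc16a3: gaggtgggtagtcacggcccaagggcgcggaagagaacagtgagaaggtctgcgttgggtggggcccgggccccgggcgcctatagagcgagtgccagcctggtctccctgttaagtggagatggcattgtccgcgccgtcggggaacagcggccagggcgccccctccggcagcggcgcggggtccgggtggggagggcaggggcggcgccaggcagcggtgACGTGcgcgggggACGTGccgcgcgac
Hk2: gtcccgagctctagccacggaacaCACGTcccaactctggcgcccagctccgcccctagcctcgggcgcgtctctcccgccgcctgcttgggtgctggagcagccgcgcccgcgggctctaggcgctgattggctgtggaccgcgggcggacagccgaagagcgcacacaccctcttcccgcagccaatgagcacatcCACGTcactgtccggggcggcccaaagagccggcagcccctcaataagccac
Gapdh: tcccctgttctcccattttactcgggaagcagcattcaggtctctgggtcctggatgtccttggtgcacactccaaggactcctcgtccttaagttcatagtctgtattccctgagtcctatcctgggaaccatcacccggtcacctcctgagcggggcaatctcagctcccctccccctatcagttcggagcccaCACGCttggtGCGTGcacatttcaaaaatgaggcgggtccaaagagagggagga
Pgk1: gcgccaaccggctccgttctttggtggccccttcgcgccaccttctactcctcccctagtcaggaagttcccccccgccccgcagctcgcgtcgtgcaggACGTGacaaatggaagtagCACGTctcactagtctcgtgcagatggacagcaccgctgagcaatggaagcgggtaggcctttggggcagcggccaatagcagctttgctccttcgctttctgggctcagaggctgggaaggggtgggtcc
Bnip3: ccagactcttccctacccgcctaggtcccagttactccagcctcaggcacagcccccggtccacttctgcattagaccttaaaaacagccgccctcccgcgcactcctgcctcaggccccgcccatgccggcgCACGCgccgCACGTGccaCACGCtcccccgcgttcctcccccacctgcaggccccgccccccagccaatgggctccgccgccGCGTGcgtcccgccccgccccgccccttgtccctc

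Each of these stretches holds 2 matches, apart from that of Bnip3, which holds 5 including a CACGTG. In Slc2a1 they begin 61 and 36 bases before the start, in Slc16a3 27 and 14, in Gapdh 54 and 44, and in Pgk1 150 and 131. Those of Hk2 lie farther apart, at 226 and 52 bases.

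Of the transporters, the main glucose importers and one lactate exporter were higher in Naa10-KO. Slc2a1, which encodes the basal glucose transporter Glut1, had 295 and 305 RPKM in Naa10-KO and 170 and 163 RPKM in WT. The Naa10-KO libraries lay close to each other and far above both WT libraries. The mean was 300.4 ± 7.26 RPKM in Naa10-KO and 167 ± 4.45 RPKM in WT (SD, n = 2 each), or 1.80-fold (log2 difference 0.85, SE 0.06, limma adjusted p = 0.0414). The call was close to the threshold, as the adjusted p was 0.0557 with no filter on low values, 0.0776 without the mean-variance trend and 0.0821 without small RNA rows and rows at 0 in any library. With WT replicate 1 or 2 left out it was 0.742 or 0.720, with log2 differences of 0.87 and 0.82, in fits that lend the lone WT library the spread of the Naa10-KO pair.

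Slc16a3, which encodes the lactate exporter Mct4 and is itself a known HIF target, had 40.1 and 69.0 RPKM in Naa10-KO and 27.4 and 28.3 RPKM in WT. Both Naa10-KO libraries were above WT, replicate 2 by more, and the row did not pass (log2 difference 0.89, SE 0.28, limma adjusted p = 0.195). Slc2a3, which encodes the high-affinity glucose transporter Glut3, had 260.2 and 342 RPKM in Naa10-KO and 237 and 241 RPKM in WT (log2 difference 0.32, limma adjusted p = 0.307). Slc2a3 was thus more abundant than Slc2a1 per length in WT, while in Naa10-KO it was below Slc2a1 in replicate 1 and above it in replicate 2. Slc16a1, which encodes the more general monocarboxylate transporter Mct1, had 42.8 and 43.0 RPKM in Naa10-KO and 44.5 and 46.4 RPKM in WT (log2 difference -0.08, limma adjusted p = 0.538). It was the 1 transporter with lower values in both Naa10-KO libraries.

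Among the glycolytic enzymes, most had higher values in Naa10-KO, and the values were higher in replicate 2 than in replicate 1 for 15 of 17. None of the 17 rows was called, and 5 had an unadjusted limma p under 0.05 (29.4%, against 22.1% of all tested rows). Of these rows, 13 had a higher mean in Naa10-KO and 4 a lower one, with a median log2 difference of 0.39. Without Naa10-KO replicate 2 this median was 0.09, and without replicate 1 it was 0.60. The groups stood apart with Naa10-KO higher in 12 rows and lower in 2, where the shares of all tested rows were 24.4% and 34.9%. Summed over the 17 genes, the level was 10960 and 14750 RPKM in the Naa10-KO libraries and 8613 and 8660 RPKM in the WT libraries. That is 1.27 and 1.71 times the WT mean, while the sum over all rows of the tables was 0.960 and 1.03 times its WT mean. The enzyme sum is weighted toward the most abundant genes. Gapdh alone gave 3986 and 5380 RPKM of it in Naa10-KO and 2765 and 2737 RPKM in WT.

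Gapdh, the enzyme that oxidises glyceraldehyde 3-phosphate, was the most abundant gene of the list. It had 3986 and 5380.1 RPKM in Naa10-KO and 2765 and 2737 RPKM in WT, so both Naa10-KO libraries lay well above WT (1.70-fold, log2 difference 0.75, SE 0.17, limma adjusted p = 0.141). It passed under quantile normalization alone among the scaling choices (adjusted p = 0.0430). Gapdh is also a common reference gene for normalising expression in other assays. Hk2, the inducible hexokinase, had 54.6 and 55.0 RPKM in Naa10-KO and 38.8 and 38.95 RPKM in WT. As with Slc2a1, the Naa10-KO libraries were nearly equal, and Hk2 had the smallest adjusted p of the enzymes (1.41-fold, log2 difference 0.49, SE 0.07, limma adjusted p = 0.0964). Pkm, the last enzyme, which makes pyruvate, had 1694 and 2011 RPKM in Naa10-KO and 1284 and 1308 RPKM in WT (log2 difference 0.51, SE 0.11, limma adjusted p = 0.136).

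Eno1, the main enolase, had 1276 and 1616 RPKM in Naa10-KO and 1006 and 1009 RPKM in WT (log2 difference 0.51, limma adjusted p = 0.160). Its nearly identical copy Eno1b, which is outside the list and was picked with its values in view, had 792 and 1084 RPKM in Naa10-KO and 631 and 621 RPKM in WT, and reads cannot be assigned to one of the pair with certainty. Ldha, the subunit that favours the making of lactate, had 897 and 1094 RPKM in Naa10-KO and 718 and 754 RPKM in WT (log2 difference 0.43, SE 0.12, limma adjusted p = 0.170). In all of these genes both Naa10-KO libraries were above both WT libraries, with replicate 2 the higher.

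Tpi1, which interconverts the triose phosphates, differed most between the Naa10-KO libraries among the abundant enzymes. It had 309 and 589 RPKM in Naa10-KO and 252 and 258 RPKM in WT, and replicate 2 stood at 2.31 times the WT mean while replicate 1 stood at 1.21 times (log2 difference 0.74, SE 0.34, limma adjusted p = 0.289). Aldoa, the main aldolase, had 1099 and 1691 RPKM in Naa10-KO and 1039 and 1025 RPKM in WT (limma adjusted p = 0.373). Pgk1, which makes the first ATP of the pathway, had 441 and 674 RPKM in Naa10-KO and 413 and 421 RPKM in WT (limma adjusted p = 0.381). Aldoa and Pgk1 were within 1.07 times the WT mean in replicate 1 and at 1.64 and 1.61 times in replicate 2. Pgam1, a phosphoglycerate mutase, stood at 672 and 888 RPKM in Naa10-KO and at 574 and 596 RPKM in WT (log2 difference 0.40, limma adjusted p = 0.248). Gpi1, which turns glucose 6-phosphate into fructose 6-phosphate, stood at 285 and 361 RPKM in Naa10-KO and at 251 and 243 RPKM in WT (log2 difference 0.38, limma adjusted p = 0.229).

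The 9 enzyme genes with a mean of 200 RPKM or more, a level set after the values were seen, all lay above both WT libraries in both Naa10-KO libraries, with a median log2 difference of 0.43 (0.28 in replicate 1 and 0.68 in replicate 2). Among all 389 tested rows at that level, small RNA rows left out, 157 did so, and the median was 0.04. The 8 enzyme genes below that level were split, with 4 higher and 4 lower and a median of -0.06, which combines -0.24 in replicate 1 with 0.40 in replicate 2. In 3 of these, namely Hk2, Pfkl and Ldhb, each Naa10-KO value exceeded each WT value, and taken by itself replicate 2 was above both WT libraries in 6 of the 8. The difference between the abundant and the scarce enzymes was not tested. Of these, Aldoc, a brain-enriched aldolase, had 9.01 and 23.1 RPKM in Naa10-KO and 18.7 and 18.4 RPKM in WT, so one library fell on each side of WT (limma adjusted p = 0.685). Hk1, the constitutive hexokinase, did likewise, at 11.3 and 21.7 RPKM in Naa10-KO and 20.1 and 18.3 RPKM in WT (limma adjusted p = 0.640). Pfkp, the platelet-type phosphofructokinase, stood at 42.6 and 83.1 RPKM in Naa10-KO and at 53.7 and 53.0 RPKM in WT (limma adjusted p = 0.803).

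The muscle-type isozymes had lower values in both Naa10-KO libraries. Pfkm, the muscle phosphofructokinase, had 17.8 and 15.9 RPKM in Naa10-KO and 19.6 and 22.8 RPKM in WT (limma adjusted p = 0.248). Eno3, the muscle enolase, had 4.68 and 3.77 RPKM in Naa10-KO and 5.31 and 6.12 RPKM in WT (limma adjusted p = 0.264). The liver-type Pfkl, with 70.7 and 98.8 RPKM in Naa10-KO and 69.1 and 69.0 RPKM in WT, and Ldhb, the lactate dehydrogenase subunit that favours pyruvate, with 85.8 and 139 RPKM in Naa10-KO and 84.9 and 83.8 RPKM in WT, lay just above WT in replicate 1 and clearly above it in replicate 2. Reads of Aldoa, Gapdh, Ldha, Ldhb, Pgam1 and Pgk1 can be shared with pseudogenes that RefSeq names after them. Eno3, Pfkm, Pfkp, Hk1, Slc16a3 and Ankrd37 overlap another gene that has a row, and the sources used here do not say whether counting used strand.

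**Figure D2:**
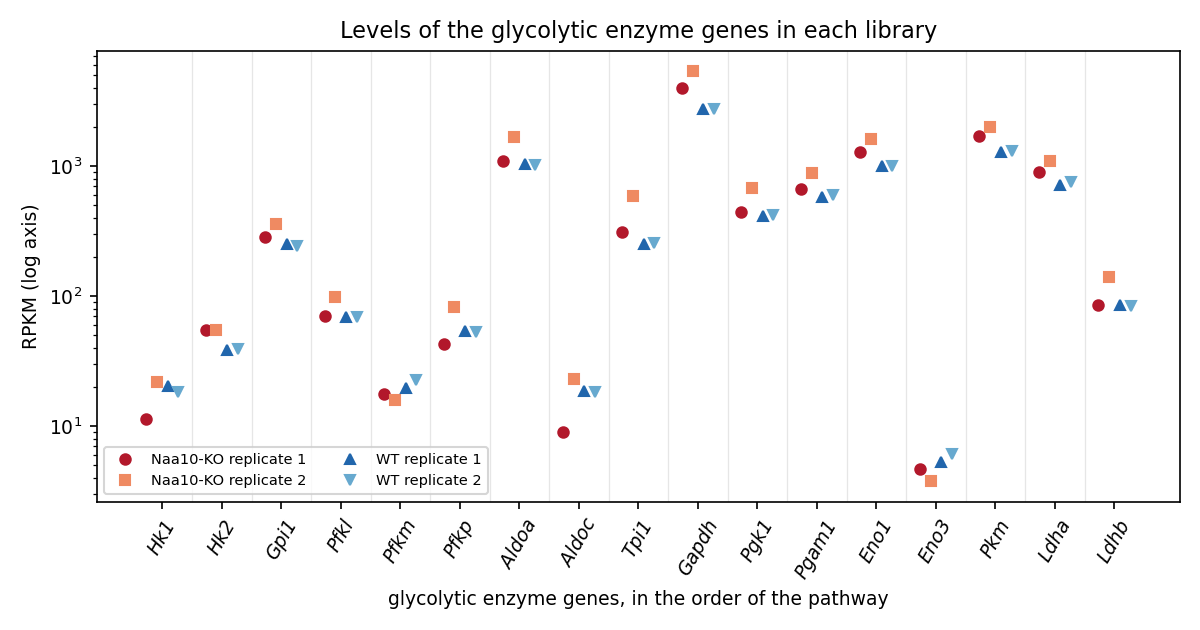
RPKM of the 17 glycolytic enzyme genes in each library, on a log axis, in the order of the pathway. For the 9 genes with a mean of 200 RPKM or more both Naa10-KO libraries lie above both WT libraries, whereas Hk1, Pfkp and Aldoc have one Naa10-KO library on each side, and Pfkm and Eno3 have both below.

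The regulators of flux shared no direction. Pfkfb3 makes fructose 2,6-bisphosphate, the strongest activator of phosphofructokinase. It had 9.72 and 7.36 RPKM in Naa10-KO and 4.45 and 4.10 RPKM in WT, so both Naa10-KO libraries were well above WT, here with replicate 1 the higher (2.00-fold, log2 difference 0.84, SE 0.17, limma adjusted p = 0.128). Pdk1, a kinase that shuts pyruvate out of the mitochondrial citric acid cycle and a well-known HIF target, had 19.9 and 31.1 RPKM in Naa10-KO and 31.5 and 31.9 RPKM in WT. It was lower in replicate 1 and just below WT in replicate 2 (log2 difference -0.33, limma adjusted p = 0.444). Pdk3, of the same kinase family, had 21.7 and 31.6 RPKM in Naa10-KO and 23.7 and 24.0 RPKM in WT, on either side of WT (limma adjusted p = 0.722). Pfkfb4, at 0.961 and 0.740 RPKM in Naa10-KO and 1.08 and 0.880 RPKM in WT, was the 1 row of the list under the filter on low values and was not tested.

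Hif1a itself was above WT in both Naa10-KO libraries, by more in replicate 1. It had 53.6 and 38.7 RPKM in Naa10-KO and 35.2 and 35.7 RPKM in WT (1.30-fold, log2 difference 0.35, SE 0.18, limma adjusted p = 0.327). RNA levels say nothing of the Hif1a protein, which is regulated by its stability. Egln3, the hydroxylase gene that is most strongly induced by HIF in many cells, lay below WT in replicate 1 and above it in replicate 2, at 6.80 and 17.7 RPKM in Naa10-KO and 10.00 and 10.1 RPKM in WT (limma adjusted p = 0.883). Its log2 difference from the WT mean was -0.51 in replicate 1 and 0.76 in replicate 2. Egln1, the main oxygen sensor, had 7.32 and 9.75 RPKM in Naa10-KO and 7.84 and 7.91 RPKM in WT (limma adjusted p = 0.757).

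The 10 Hif targets showed no common direction, and several differed more between the Naa10-KO libraries than from WT. None was called, where 0.764% of all tested rows were. None had an unadjusted limma p under 0.05, where 22.1% of all tested rows did. Of the 10 rows, 6 had a higher mean in Naa10-KO (42.7% of all tested rows did) and 4 a lower one. The median log2 difference of the group was 0.13, while the median against WT was -0.05 in each Naa10-KO library on its own, so the sign depends on how the libraries are combined. The groups overlapped in 7 of the 10 rows, whereas they stood apart in 59.3% of all tested rows.

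Bnip3, a mitophagy receptor, had 22.5 and 68.5 RPKM in Naa10-KO and 29.5 and 30.3 RPKM in WT. Replicate 1 lay below both WT libraries and replicate 2 at 2.29 times the WT mean (log2 difference -0.39 and 1.17, limma adjusted p = 0.699 for the group). Ndrg1, a stress-responsive gene, had 15.8 and 39.7 RPKM in Naa10-KO and 16.6 and 16.0 RPKM in WT, with replicate 1 at the WT level and replicate 2 at 2.44 times it (limma adjusted p = 0.482). Vegfa, the angiogenic growth factor, was split the opposite way, at 20.3 and 7.07 RPKM in Naa10-KO and 9.94 and 9.29 RPKM in WT (limma adjusted p = 0.739). It stood at 2.11 times the WT mean in replicate 1, the library with the high fibroblast markers, and at 0.735 times in replicate 2. The part of the fibroblast markers in this split was not tested.

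Mxi1, a partner of Max that opposes Myc, had 4.22 and 8.13 RPKM in Naa10-KO and 9.28 and 9.08 RPKM in WT, both lower (log2 difference -0.56, limma adjusted p = 0.353). Ero1l, an oxidase of protein folding in the endoplasmic reticulum, had 24.2 and 29.6 RPKM in Naa10-KO and 31.0 and 32.3 RPKM in WT, also both lower (limma adjusted p = 0.344). P4ha1, a subunit of collagen prolyl 4-hydroxylase, was the 1 target above WT in both, at 11.3 and 12.8 RPKM in Naa10-KO and 10.2 and 9.99 RPKM in WT (limma adjusted p = 0.303). Ankrd37 had 7.06 and 12.2 RPKM in Naa10-KO and 7.82 and 6.92 RPKM in WT (limma adjusted p = 0.544). The mTORC1 inhibitor gene Ddit4, the histone demethylase gene Kdm3a and P4ha2 had log2 differences of -0.07, 0.03 and -0.01, with limma adjusted p of 0.661, 0.846 and 0.981.

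**Figure D3:**
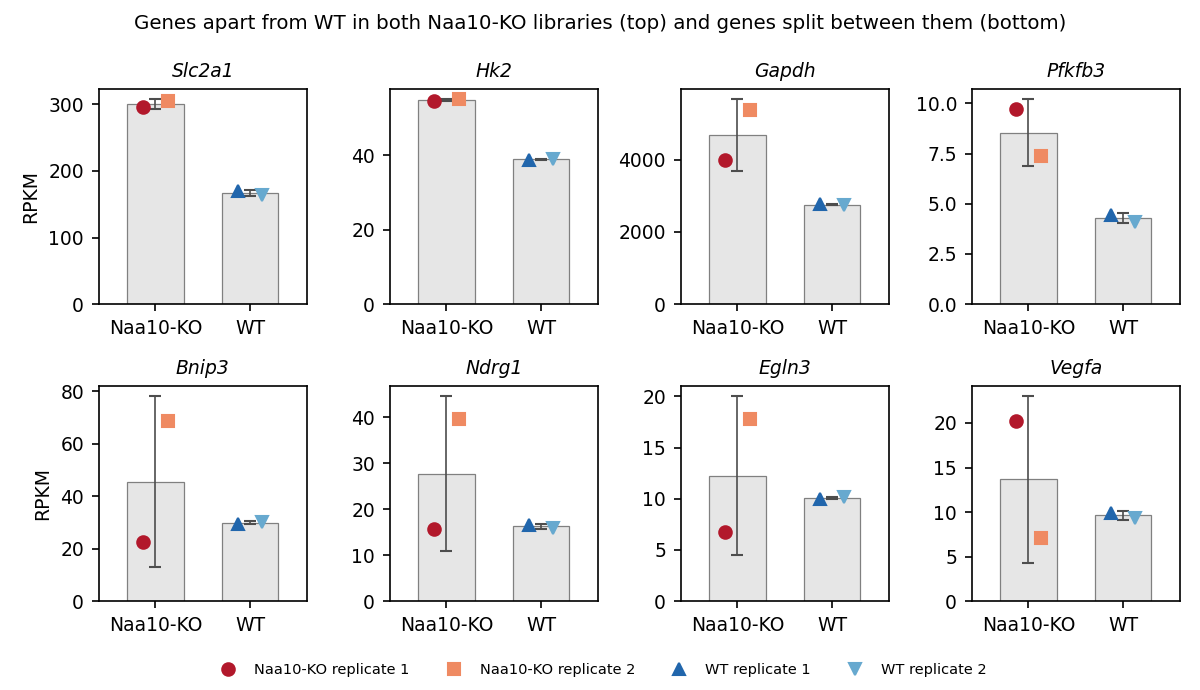
RPKM of 8 genes in the Naa10-KO and WT libraries, with points for libraries, bars for the group mean and whiskers for its SD (n = 2 each). In the top row (Slc2a1, Hk2, Gapdh, Pfkfb3) both Naa10-KO libraries lie above both WT libraries, and in the bottom row Bnip3, Ndrg1 and Egln3 are high in Naa10-KO replicate 2 alone and Vegfa in replicate 1 alone.

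Lists of other genes around the pathway place these values. Further isozymes, side enzymes and sugar transporters of glycolysis had a higher mean in Naa10-KO in 5 of 17 tested rows (29.4%, against 42.7% of all tested rows) and a lower one in 12. Their median log2 difference was -0.14, with 0 called (0.764% of all tested rows were). An unadjusted limma p under 0.05 was found for 6 or 35.3%, against 22.1% of all tested rows. The replicates were split here. Naa10-KO replicate 1 had a median of -0.43 and lay below both WT libraries in 14 of the 17 rows (background 54.6%). Replicate 2 had a median of 0.05 and lay above both in 10 (background 41.8%). Genes of pyruvate oxidation and the citric acid cycle were lower in 24 of 28 tested rows and higher in 4 (14.3%, against 42.7% of all tested rows). Their median log2 difference was -0.12, against -0.06 over all tested rows. In 17 of the 28 rows each Naa10-KO value was below each WT value (34.9% of all tested rows), and in 2 each was above (24.4% of all tested rows). Here limma called 0, with 9 or 32.1% at an unadjusted p under 0.05. Both replicates shared the lower direction, with medians of -0.21 for Naa10-KO replicate 1 and -0.14 for replicate 2. Under median-of-ratios scaling 19 of the 28 rows were lower, with a median of -0.07. Under quantile normalization 22 were lower, with a median of -0.14. The pentose phosphate pathway was higher in 5 of 8 tested rows (median 0.03, 0 called, 3 or 37.5% at an unadjusted limma p under 0.05), and gluconeogenesis in 2 of 3 (median 0.21, 0 called and 0 at an unadjusted limma p under 0.05).

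A longer list of hypoxia targets was higher in 29 of 41 tested rows (70.7%, against 42.7% of all tested rows), with a median log2 difference of 0.24. An unadjusted limma p under 0.05 was found for 9 of the 41, or 22.0%, close to the 22.1% of all tested rows. In 18 rows each Naa10-KO value exceeded each WT value (24.4% of all tested rows), and in 11 each was below (34.9% of all tested rows). In contrast to the glycolytic enzymes, the median of this list was larger in Naa10-KO replicate 1, at 0.28, than in replicate 2, at 0.13. Bhlhe40, a transcription factor of the clock and of hypoxia, was the 1 row called, at 54.4 and 62.0 RPKM in Naa10-KO and 25.3 and 24.2 RPKM in WT (log2 change 1.20, limma adjusted p = 0.0451). Its adjusted p was 0.0614 with no filter on low values, 0.0669 without the mean-variance trend, 0.0821 without small RNA rows and rows at 0, and 0.722 or 0.664 with WT replicate 1 or 2 left out. Edn1, the precursor of the vasoconstrictor endothelin-1, was lower in Naa10-KO, at 2.03 and 4.51 RPKM in Naa10-KO and 12.0 and 11.3 RPKM in WT (log2 difference -1.63, limma adjusted p = 0.129). Of the other genes of the Hif machinery, such as Arnt, Epas1 and Vhl, 12 of 20 tested rows were higher (median 0.06), and the 1 row called was that of Naa10, which is on this list as well.

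**Figure D4:**
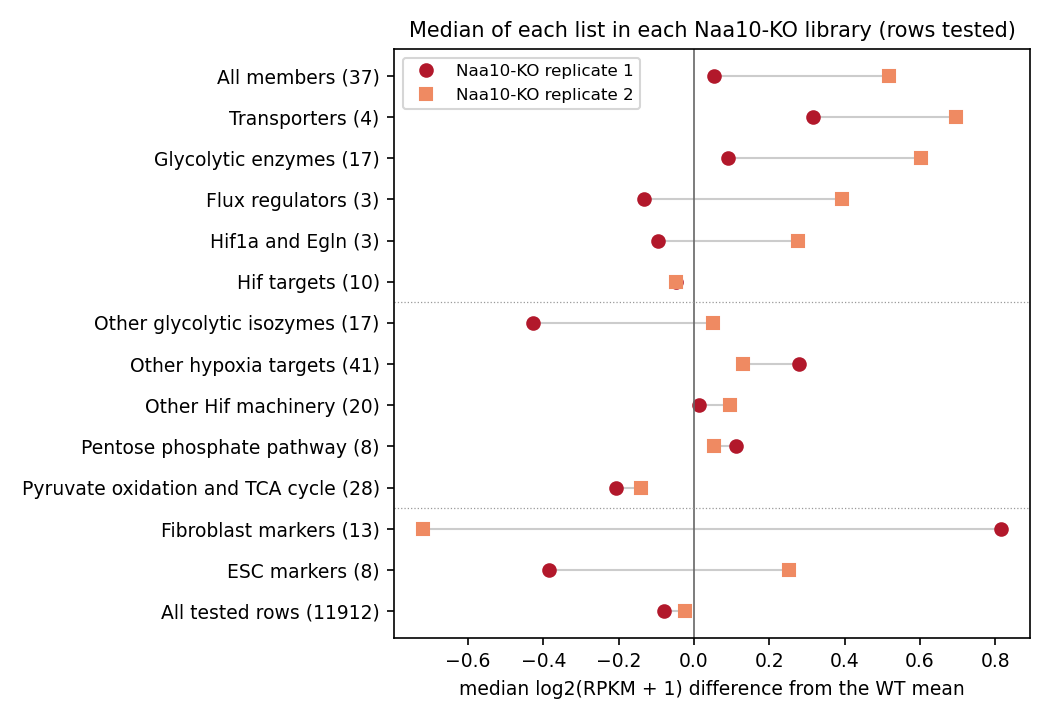
Median log2(RPKM + 1) difference from the WT mean for each list in each Naa10-KO library, with the number of tested rows in brackets. The glycolytic enzymes and transporters lie right of zero in both libraries and farther in replicate 2, the citric acid cycle list lies left of zero in both, and the fibroblast markers and ESC markers lie on opposite sides in the replicates.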

How the data were processed

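Polyadenylated RNA was sequenced on an Illumina HiSeq after sonication to fragments of about 200 bp and random-hexamer priming, per the labels' protocols. The authors deposited 1 table per library with RPKM values, per the file headers. Cufflinks, bedtools and build mm9 are named, per the submitters' processing notes, while aligner, annotation and tool versions were not given in the sources used here. Read counts were not used here, so depth and its precision are unknown.

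Rows were kept as deposited, and rows joining several symbols matched a gene by any of them. RPKM were log2-transformed with a pseudocount of 1 and tested two-sided with limma 3.58.1 (mean-variance trend; R 4.3.3, Python 3.11.15, pandas 2.3.3) on rows reaching 1 RPKM in 2 or more libraries, with 2 residual degrees of freedom and 1.94 more borrowed across rows. The procedure was tested on simulated data with the same spread in both groups, unlike the libraries here. An exact permutation test of 2 against 2 libraries cannot go below p = 0.333 and was not used. The members and lists were chosen with earlier results of these data known. Every row of the list is given; genes of other lists are named if called, or if both Naa10-KO libraries lie on one side of both WT libraries with an absolute log2 difference of 1 or more, apart from a gene that is not reported here. The tables list 323 rows at exactly 0 in some library, none of them on the list. The same replicate numbers were not taken as pairs. Alternatives were other pseudocounts, filters, scalings and variance models, a replicate block, and each library left out. Promoter sequences are from RefSeq (GRCm38.p6), a different build from the deposited values, and serve as sequence only; protein sequences were not used here.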

Additional observations from a re-analysis of the deposited data

How the results depend on the processing

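The list's count of 27 genes with a higher mean in Naa10-KO ran from 21 to 28 under the 13 alternatives other than crossed numbers. The variance models and the replicate block cannot change this count. The 18 genes with both Naa10-KO values above both WT values were counted on the deposited values in every setting. Only a filter or a library left out could change that count, which ran from 18 to 27. The list's median log2 difference ran from 0.05 without Naa10-KO replicate 2 to 0.52 without replicate 1. Calls were less stable. Over all rows, 91 were called, against 40 with no filter on low values and 0 without small RNA rows and rows at 0 in any library, where the smallest limma adjusted p was 0.0591 and 2626 rows had an unadjusted p under 0.05. Leaving out a library gave 12 to 7081 calls, since the lone library of a group is then assumed to vary like the other pair, which for WT is very tight. The 1 call on the list, Slc2a1, became 0 with no filter, without the mean-variance trend and without small RNA rows and rows at 0, was joined by Gapdh under quantile normalization (2 calls), and was 0 to 27 calls with a library left out. Read depth is unknown, and 2 libraries a group limit every test.

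The replicate numbers were not taken to pair the libraries. Deviations of same-numbered libraries correlated at -0.215 across 11912 rows, which are not independent. With 2 libraries a group, this sets the difference between the Naa10-KO libraries against that between the WT libraries. It therefore cannot show whether same-numbered libraries were handled together. With the replicate block, 44 rows and 0 of the list were called, with limma adjusted p of 0.112 for Slc2a1 and 0.0927 for Bhlhe40. With the numbers crossed, a choice made after seeing the data, 133 rows and 1 of the list were called.

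P4ha2 turned from -0.01 to 0.044 under median-of-ratios scaling and 0.055 under quantile normalization. With single libraries left out, the log2 difference changed sign for 12 genes, whose ranges over the 4 libraries were -0.97 to 0.30 for Aldoc, -0.72 to 0.17 for Hk1, -0.050 to 0.11 for Kdm3a, -0.39 to 1.00 for Vegfa, -0.053 to 0.66 for Ankrd37, -0.39 to 1.17 for Bnip3, -0.094 to 0.28 for Egln1, -0.51 to 0.76 for Egln3, -0.040 to 1.24 for Ndrg1, -0.10 to 0.090 for P4ha2, -0.13 to 0.39 for Pdk3 and -0.32 to 0.63 for Pfkp. Apart from P4ha2, which turned without WT replicate 1 as well, each turned when 1 of the Naa10-KO libraries was left out.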
